A study of Mus musculus with 6 samples.

Results

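Mucin-type O-glycosylation was followed through 9 of its genes in mouse chondrocytes: C1galt1, C1galt1c1, Galnt1, Galnt2, Galnt7, Galnt10, Galnt11, Gcnt1 and St3gal1. All 9 were found by symbol among the 35976 genes of the count table, and all 9 were among the 13761 genes that passed the filter on low counts. The set was chosen by its leading gene. C1galt1 ranked 7 by p-value over all genes, and 3 among genes lower in H3K9M, in the same contrast of H3K9M with H3WT that is described here. The other 8 genes were added for their place in the pathway, with their values already known. Differences of the 9 between the groups are therefore given as descriptions with their standard errors, and their p-values are not printed. Counts of members that pass a p threshold are given beside those over all genes, and nothing is read from them.

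The cells were chondrocytes, the matrix-producing cells of cartilage, from hind limb articular cartilage of C57BL/6 x 129S4/SvJae mouse embryos at day 18.5. Both groups were expanded on plastic for 16 population doublings with doxycycline at 2 µg/ml, inducing a histone H3.3 transgene. In H3K9M cells (3 libraries, replicates 1, 3 and 5) lysine 9 of the encoded histone was replaced by methionine, and methylation of H3K9, a mark of silenced chromatin, is labelled as suppressed. H3WT cells (3 libraries, replicates 1, 2 and 4) carried the wild-type H3.3 transgene. The promoter of the transgene is not named in the labels. Nor do they say whether replicates were separate embryos or cultures, so the SDs given below measure the spread between these libraries. The standard errors of log2 fold changes come from the edgeR fit, which also draws on the variability of other genes. Gene counts do not show the altered codon, so the transgene itself was not checked.

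Mucin-type O-glycosylation is the addition of sugars to serine and threonine side chains in the Golgi apparatus. A polypeptide GalNAc-transferase (a Galnt enzyme) attaches the first sugar, N-acetylgalactosamine, and the galactosyltransferase C1GALT1, also called T-synthase, adds galactose to make the core 1 disaccharide. C1GALT1 folds only with the help of a dedicated chaperone of the endoplasmic reticulum, COSMC, which C1galt1c1 encodes. Core 1 is then branched to core 2 by GCNT1 or capped with sialic acid by ST3GAL1. In joints, lubricin (encoded by Prg4) carries dense glycans of this kind, and aggrecan carries some of them.

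C1galt1 lies on the forward strand of chromosome 6, at chr6:7844842-7875687 of GRCm38 (the same assembly as mm10, the build in the submitters' processing notes), and has 4 exons in GENCODE M21. C1galt1c1 lies on chromosome X. The other 7 genes are spread over chromosomes 18 (Galnt1), 8 (Galnt2 and Galnt7), 11 (Galnt10), 5 (Galnt11), 15 (St3gal1) and 19 (Gcnt1). The RefSeq promoter windows of this build (250 bases before to 50 after a start) were matched to 5 of the 9 genes. The window of C1galt1 held 52 CG dinucleotides in 300 bases, against a median of 7 over 32817 windows, and 0.576% of windows held as many. It also held 6 GC boxes (GGGCGG on either strand), a motif found in 35.6% of windows. The windows of Galnt10 and Galnt7 held 28 and 25 CG. Galnt11 had windows at 2 starts, with 23 and 7 CG, and Gcnt1 at 3 starts, with 2, 16 and 3 CG, of which the outermost (2 CG) is shown. Stretches are shown for the gene whose values split the groups (the 30 bases of its window with most CG, which lie before the RefSeq start but after the start of the GENCODE gene model), for an initiating enzyme whose groups overlapped (Galnt10) and for the one that varied most between libraries (Gcnt1). Capitals mark CG. These letters are a description of the windows, and no measurement of chromatin was used here.
C1galt1, chr6:7845074-7845103, forward strand: CGggtcCGCGtcccCGtcCGCGcCGgCGCG
Galnt10, chr11:57645192-57645441, forward strand: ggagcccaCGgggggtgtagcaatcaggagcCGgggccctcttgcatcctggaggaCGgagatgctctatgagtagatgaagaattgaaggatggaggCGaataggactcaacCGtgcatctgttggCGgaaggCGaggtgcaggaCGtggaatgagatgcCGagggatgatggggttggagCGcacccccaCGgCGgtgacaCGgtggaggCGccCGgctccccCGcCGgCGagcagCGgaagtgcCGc
Gcnt1, chr19:17372845-17373094, reverse strand: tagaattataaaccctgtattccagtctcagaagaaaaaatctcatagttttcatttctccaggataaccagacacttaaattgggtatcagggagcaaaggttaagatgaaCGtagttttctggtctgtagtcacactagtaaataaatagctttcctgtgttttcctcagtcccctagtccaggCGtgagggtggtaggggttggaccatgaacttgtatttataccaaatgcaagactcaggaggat

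Total counts per library ranged from 15113675 to 19606082. The first principal component of log2 CPM (counts per 1000000 of the TMM-scaled library size) held 35.5% of the variance and did not follow the groups: H3K9M replicate 3 (51) and H3WT replicate 2 (49.1) lay at one end. The 6 chondrocyte markers examined were all present, with summed levels of 6587 to 10770 CPM in H3K9M against 6433 to 17690 CPM in H3WT. Most of each sum was Col2a1. All 6 had negative edgeR log2 fold changes, from -0.26 (Acan, SE 0.69) to -1.89 (Col9a1, SE 0.75), and for each the groups overlapped. Over all genes tested, 50.4% were below 0. The 4 fibroblast genes examined summed to 7862 to 20710 CPM and 6372 to 24240 CPM, with the lowest sums in H3K9M replicate 3 and H3WT replicate 2. Endothelial markers summed to under 1 CPM in every library with Cdh5 at 0, and Ptprc, Adgre1 and Hbb-bs of the macrophage and blood list were at 0 in all of them. Epithelial markers, of interest because mucins abound in epithelia, summed to 4.59 to 24.6 CPM in H3K9M against 1.12 to 5.55 CPM in H3WT, with Krt5 at 0. Krt18, whose groups overlapped, had 6.83, 22.0 and 4.34 CPM of these sums in H3K9M. The 5 macrophage and blood markers summed to 6.16 to 14.9 CPM in H3K9M against 3.37 to 4.32 CPM in H3WT, without overlap. These counts came from Csf1r and Cd68 alone, and for each of them the groups overlapped. Skeletal muscle markers (5 genes) moved in part with the groups, with sums of 138.1, 197.6 and 19.2 CPM for H3K9M replicates 1, 3 and 5 against 31.1, 11.1 and 25.7 CPM for H3WT replicates 1, 2 and 4. Within that list Myod1 had 19.5, 57.0 and 4.29 CPM against 0, 1.04 and 0 CPM, and Des was also higher in every H3K9M library. Myog was at 0 in all H3WT libraries, and Ckm was at 0 in all but H3K9M replicate 1. Acta1 did not follow the groups, at 32.8, 33.2 and 5.97 CPM in H3K9M against 26.2, 3.27 and 24.0 CPM in H3WT. In bulk RNA, fewer cells of a type and less RNA per cell cannot be told apart.

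C1galt1, the gene of the core 1 enzyme, was lower in every H3K9M library than in any H3WT library. H3K9M replicates 1, 3 and 5 had 19.9, 19.6 and 22.3 CPM, and H3WT replicates 1, 2 and 4 had 42.2, 41.4 and 44.3 CPM. The groups did not overlap, and the gap between them was wider than the range within either group. These values rest on 297 to 437 reads in H3K9M and 752 to 798 reads in H3WT. The means were 20.6 ± 1.47 CPM and 42.6 ± 1.49 CPM (SD, n = 3 each), a log2 fold change of -1.05 (SE 0.14, edgeR), or 2.07-fold lower in H3K9M.

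C1galt1 had one of the smaller spreads among the genes tested. The SD of its log2 CPM within groups was 0.0782, against a median of 0.286 over the genes tested, and 2.96% of genes had a smaller one. A log2 fold change as low as that of C1galt1 or lower was found in 681 genes (4.95%). The p-value rank that chose the gene favours small spreads and large changes, so nothing is read from these shares. The part of the chondrocyte, muscle, macrophage and epithelial markers in this difference was not tested. H3K9M replicate 5, with 22.3 CPM of C1galt1, had a muscle sum and an Acta1 level (5.97 CPM) within the range of the H3WT libraries. Its Myod1, Des and Myog and its macrophage and blood sum (8.16 CPM) lay above the H3WT range. H3WT replicate 2, which lay with H3K9M replicate 3 on the first component, had 41.4 CPM of C1galt1.

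**Figure D1:**
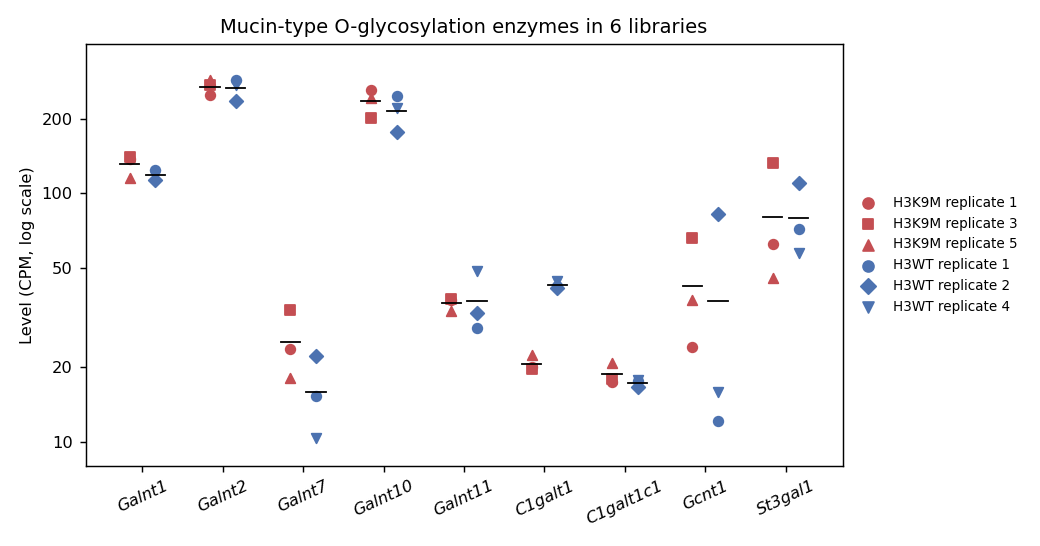
Level of each of the 9 genes in each library, in CPM on a log axis, with H3K9M libraries in red and H3WT libraries in blue, 1 symbol per library, and a black line at the mean of each group (n = 3). For C1galt1 the H3K9M libraries lie between 19.6 and 22.3 CPM and the H3WT libraries between 41.4 and 44.3 CPM, while for the other 8 genes the groups overlap.

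Among the 9 genes, 1 (C1galt1) had groups that did not overlap, with H3K9M lower, and 0 had H3K9M wholly higher. Over all genes tested, 8.68% had H3K9M wholly lower and 10.7% wholly higher. At an adjusted p under 0.05 over all genes, 0 of the 9 were called with edgeR's quasi-likelihood test, where 0% of all genes were called, and 0 with limma-voom, likewise at 0% of all genes. At an unadjusted p under 0.05 with edgeR there was 1, C1galt1, against 12.2% of all genes. DESeq2's Wald test called 1, again C1galt1, and 2.84% of all genes. Without H3WT replicate 2, edgeR called C1galt1 and 0.639% of all genes. The contrast chose C1galt1, so nothing is read from these shares.

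The chaperone gene C1galt1c1 did not show the split of its client. Its level was 17.4, 17.9 and 20.8 CPM in H3K9M against 17.5, 16.6 and 17.7 CPM in H3WT, in replicate order. The groups overlapped and the highest library was 1.25 times the lowest. The log2 fold change was 0.11 (SE 0.18), and 1 of 14 alternatives, a correction for GC content and transcript length, gave a negative value (-0.32, SE 0.19).

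The ratio of the 2 genes within a library does not depend on how libraries are scaled, though a correction for GC content and transcript length would change it. For each C1galt1c1 read, H3K9M replicates 1, 3 and 5 had 1.14, 1.10 and 1.07 C1galt1 reads, and H3WT replicates 1, 2 and 4 had 2.41, 2.49 and 2.51. The means were 1.10 ± 0.0349 and 2.47 ± 0.0523 (SD, n = 3 each), 2.25-fold higher in H3WT. Per kilobase of exon, however, C1galt1 was the lower of the pair in every library, at 3.22 to 3.66 RPKM (CPM per kilobase of exon) in H3K9M and 6.80 to 7.27 in H3WT, against 11.5 to 14.3 for C1galt1c1.

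**Figure D2:**
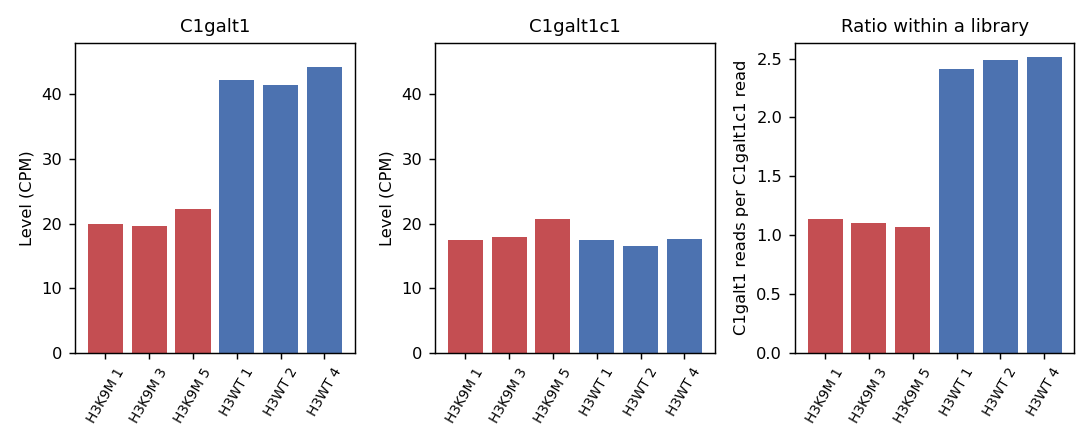
Bars give the level of C1galt1 and of C1galt1c1 in CPM, and the number of C1galt1 reads per C1galt1c1 read, in each library (H3K9M red, H3WT blue, numbers are replicates). C1galt1 and the ratio are low in the 3 H3K9M libraries (ratio 1.07 to 1.14) and high in the 3 H3WT libraries (2.41 to 2.51), while C1galt1c1 stays between 16.6 and 20.8 CPM.

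The GalNAc-transferases that start the chain showed no such split. Galnt2, which acts on a broad range of proteins, had 249, 273.4 and 286.5 CPM in H3K9M against 287.6, 236.5 and 273.4 CPM in H3WT. Galnt1, another broadly acting enzyme, had 137.3, 140.5 and 115.1 CPM against 124.6, 113.5 and 118.7 CPM. For both, the groups overlapped and the highest library was under 1.3 times the lowest. Log2 fold changes were 0.02 (SE 0.13) for Galnt2 and 0.14 (SE 0.12) for Galnt1. Galnt2 shares 3854 exon bases with Gm20388 on the same strand, a symbol that is absent from the count table. The Galnt2 counts may therefore include reads from transcripts of Gm20388.

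Galnt10 and Galnt7 encode transferases that prefer peptides already bearing GalNAc. Galnt10 had 260.7, 202.2 and 241.7 CPM in H3K9M against 246.7, 176.3 and 220.4 CPM in H3WT (edgeR log2 fold change 0.13 ± 0.16 SE). Its lowest values in both groups came from H3K9M replicate 3 and H3WT replicate 2. Galnt7 had 23.7, 34.0 and 18.0 CPM against 15.2, 22.1 and 10.3 CPM, with a log2 fold change of 0.67 (SE 0.33), the largest positive value among the 9. Its groups overlapped, and the highest value of each group was again in H3K9M replicate 3 and H3WT replicate 2. Galnt7 shares 98 exon bases with AW046200 on the opposite strand, and the strand setting of the counts is not given in the sources used here, so reads there could belong to either gene.

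Galnt11, whose enzyme glycosylates receptors of the LDL receptor family, had 37.3, 37.4 and 33.5 CPM in H3K9M against 28.6, 33.0 and 48.8 CPM in H3WT. The H3K9M values lay inside the range of the H3WT values, and the log2 fold change was -0.03 (SE 0.21). Its annotated transcript shares stretches of at least 200 bases at 90% identity or more with those of 73 other genes, and its counts are uncertain to that extent. Together the 5 Galnt genes of the set summed to 708, 687 and 695 CPM in H3K9M against 703, 581 and 672 CPM in H3WT. C1galt1 reads were 2.96% ± 0.219 of the reads of these 5 genes in H3K9M and 6.58% ± 0.557 in H3WT (SD, n = 3 each).

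Gcnt1, the core 2 branching enzyme, varied most of the 9 between libraries. It had 24.0, 66.2 and 37.0 CPM in H3K9M against 12.1, 82.6 and 15.9 CPM in H3WT, with the highest library at 6.81 times the lowest. H3K9M replicate 3 and H3WT replicate 2 stood out in both groups. The log2 fold change was 0.20 (SE 0.80), and it was 1.61 (SE 0.44) without H3WT replicate 2. It was -0.265 (SE 0.96) without H3K9M replicate 3, -0.213 (SE 0.76) without H3WT replicate 1 and -0.156 (SE 0.83) without H3WT replicate 4. Single libraries thus decided its size and sign. Without both H3K9M replicate 3 and H3WT replicate 2 it was 1.14 (SE 0.27). Its within-group SD of log2 CPM was 1.16, larger than that of 97.6% of genes.

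St3gal1, whose product caps core 1 with sialic acid, was highest in the same libraries. It had 62.7, 132.6 and 45.6 CPM in H3K9M against 71.8, 109.9 and 57.7 CPM in H3WT, and the log2 fold change was 0.01 (SE 0.43). That value was -0.55 (SE 0.30) without H3K9M replicate 3 and 0.32 (SE 0.47) without H3WT replicate 2. Relative to C1galt1, both enzymes that act on core 1 also differed from library to library. Gcnt1 reads per C1galt1 read were 1.21, 3.38 and 1.66 in H3K9M and 0.287, 1.99 and 0.359 in H3WT, and these overlapped between the groups. For St3gal1 they were 3.15, 6.76 and 2.04 against 1.70, 2.65 and 1.30, which also overlapped.

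**Figure D3:**
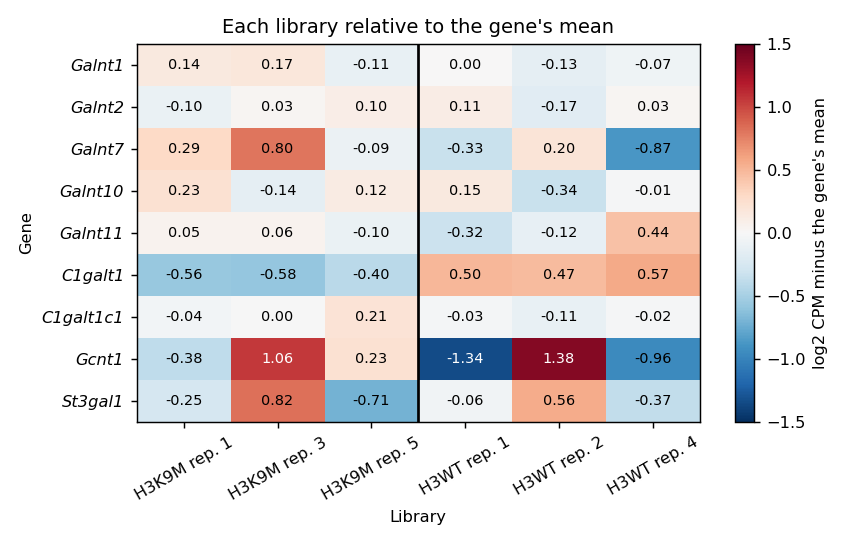
Log2 CPM of each gene in each library minus the gene's mean over the 6 libraries, as numbers and colours (red above the mean, blue below), with a line between the H3K9M and the H3WT libraries. C1galt1 is below its mean in the 3 H3K9M libraries (-0.40 to -0.58) and above it in the 3 H3WT libraries (0.47 to 0.57), whereas Gcnt1 and St3gal1 are highest in H3K9M replicate 3 and H3WT replicate 2.

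Compared per kilobase of exon, 3 GalNAc-transferases headed the order. Means over the 6 libraries were 62.5 RPKM for Galnt2, 37.7 for Galnt10, 22.6 for Galnt1, 12.4 for C1galt1c1, 11.7 for St3gal1, 6.88 for Gcnt1, 5.31 for Galnt11, 5.19 for C1galt1 and 3.91 for Galnt7. The libraries of Galnt2, Galnt10, Galnt1 and C1galt1c1 did not overlap from one gene to the next. From C1galt1c1 downward, each gene overlapped its neighbour in the order. The place of C1galt1 in the order differed by group. It was 6 of 9 in H3WT, at 7 ± 0.245 RPKM, and 9 of 9 in H3K9M, at 3.38 ± 0.242 RPKM (SD, n = 3 each), and its libraries overlapped those of the gene below it in H3WT (Gcnt1) and above it in H3K9M (Galnt7), but not those of St3gal1, next above it in H3WT. With the longest transcript as the length, C1galt1c1 and St3gal1 changed places, as did Gcnt1 and Galnt11. Of the summed RPKM of 19 GalNAc-transferase symbols, Galnt1, Galnt2 and Galnt10 took 75.6% to 77.6% in H3K9M libraries and 69.2% to 76.1% in H3WT libraries.

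Genes beyond the 9 members were read from 6 lists of 61 genes, of which 49 passed the filter on low counts. Included is a list of 8 enzymes that start other kinds of protein O-glycosylation, Xylt2 among them, with 6 log2 fold changes below 0. Over all genes tested, 0 of these 49 were called with edgeR or limma-voom, and 1 (Prg4) with DESeq2, which called 2.84% of all genes. At an unadjusted p under 0.05 with edgeR there were 4, of which 3 were lower in H3K9M (Galnt18, B3gnt3 and Xylt2) and 1 was higher (Prg4), where 12.2% of all genes passed. Neither count stood above its background. Apart from B3gnt3, these are named because of their values. The median log2 fold change of the 49 was -0.08, and 34 of them (69.4%) were below 0. Over all 13761 genes the median was -0.003 and 50.4% were below 0, and for the 9 members it was 0.115, with 7 above 0.

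Of the 14 other GalNAc-transferases, 11 were tested. The 3 with the highest levels were Galnt13, at 46.2 ± 11.7 CPM in H3K9M against 56.6 ± 8.55 CPM in H3WT, Galnt4, at 31.3 ± 5.68 and 32.6 ± 1.93 CPM, and Galnt14, at 20 ± 9.54 and 26.6 ± 10.6 CPM (SD, n = 3 each). Their log2 fold changes were -0.29, -0.06 and -0.41 (SE 0.20, 0.17 and 0.40), with adjusted p-values of 0.605, 0.931 and 0.73 in the edgeR test. The list had 10 of 11 log2 fold changes below 0 and a median of -0.41, but its size depended on single libraries: the median was -0.09 without H3WT replicate 2, -0.65 without H3WT replicate 1, -0.77 without H3WT replicate 4 and -0.72 without H3K9M replicate 5. Between 7 and 10 were below 0 when 1 library was left out, and 8 with library size alone as the scaling. Galnt18 had 12.9, 11.4 and 23.2 CPM in H3K9M against 32.6, 21.6 and 29.7 CPM in H3WT (edgeR log2 fold change -0.82 ± 0.30 SE, adjusted p 0.347), and 1 H3K9M library lay within the H3WT range. Galnt6 and Galntl5 had 0 counts in every library.

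Among the other enzymes that extend core structures, B4galt1, a galactosyltransferase that lengthens many glycans, had 151.8 ± 10.5 CPM in H3K9M against 150.8 ± 26.0 CPM in H3WT, and Gcnt4, a core 2 enzyme, had 25.2 ± 2.42 and 22.7 ± 3.81 CPM (SD, n = 3 each). Their log2 fold changes were 0.01 and 0.15 (SE 0.15 and 0.19, adjusted p 0.987 and 0.801, edgeR). B3gnt3, which extends core 1 with N-acetylglucosamine, was scarce. It had 0.469, 1.35 and 0 CPM in H3K9M against 5.67, 2.18 and 5.36 CPM in H3WT, and the groups did not overlap (edgeR log2 fold change -2.83 ± 1.12 SE, adjusted p 0.38). Gcnt3 had 0 counts in every library.

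Sialyltransferases other than St3gal1 overlapped between the groups in all 4 that were tested of 6. Of all genes tested, 19.4% did not overlap. St3gal2, which also sialylates core 1, had 137.1 ± 6.54 CPM in H3K9M against 154.5 ± 22.5 CPM in H3WT (edgeR log2 fold change -0.17 ± 0.14 SE, adjusted p 0.651). St6galnac4 had 37.3 ± 10.4 and 37.0 ± 9.70 CPM, and St3gal4 25 ± 1.63 and 28.1 ± 9.03 CPM (SD, n = 3 each), with log2 fold changes of 0.01 and -0.17 (SE 0.26 and 0.23, adjusted p 0.993 and 0.827, edgeR). The highest library of St3gal2 was 1.32 times the lowest, against 2.91 times for St3gal1, and H3WT replicate 2 (128.6 CPM) was its lowest library.

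Of the genes that supply the sugar donors, 0 passed an unadjusted p under 0.05 with edgeR, where 12.2% of all genes passed. With edgeR and limma-voom 0 were called, where 0% of all genes were. DESeq2 also called 0 of them, and 2.84% of all genes. The 12 tested of 13 had log2 fold changes between -0.33 and 0.24, a median of -0.06, 7 below 0, and groups that overlapped in all 12. Over all genes tested, 19.4% had groups that did not overlap. Ugp2, which makes UDP-glucose, had 79.8 ± 11.6 CPM in H3K9M against 100.3 ± 12.2 CPM in H3WT (edgeR log2 fold change -0.33 ± 0.15 SE, adjusted p 0.43). Nans, an enzyme of sialic acid synthesis, had 87.6 ± 6.83 and 78.3 ± 6.91 CPM, and the galactokinase gene Galk1 79.6 ± 14.5 and 85.1 ± 13.1 CPM (SD, n = 3 each). Their log2 fold changes were 0.16 and -0.10 (SE 0.12 and 0.17, adjusted p 0.64 and 0.872, edgeR).

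Proteins that carry these glycans were measured through 15 genes, of which 11 were tested. Of the most abundant, App, the amyloid precursor protein gene, had 1486 ± 374.8 CPM in H3K9M against 1731 ± 255.3 CPM in H3WT, and the receptor gene Lrp1 had 1562 ± 199 and 1483 ± 240.1 CPM (SD, n = 3 each). Their log2 fold changes were -0.22 and 0.07 (SE 0.21 and 0.17, adjusted p 0.722 and 0.9, edgeR). Cd44, the hyaluronan receptor gene, had 511.3, 987.8 and 383.7 CPM in H3K9M against 390.8, 644.8 and 281.3 CPM in H3WT (edgeR log2 fold change 0.52 ± 0.43 SE, adjusted p 0.676). Like Gcnt1 and St3gal1, it was highest in H3K9M replicate 3 and H3WT replicate 2 of their groups, and so was the podoplanin gene Pdpn, at 109.7 and 123.2 CPM, which is named because of its values. Prg4, the lubricin gene, had 137.6, 130.9 and 128.9 CPM in H3K9M against 95.6, 68.0 and 74.6 CPM in H3WT (edgeR log2 fold change 0.74 ± 0.15 SE, adjusted p 0.18). Its groups did not overlap. Emcn and Podxl had 0 counts in every library.

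**Figure D4:**
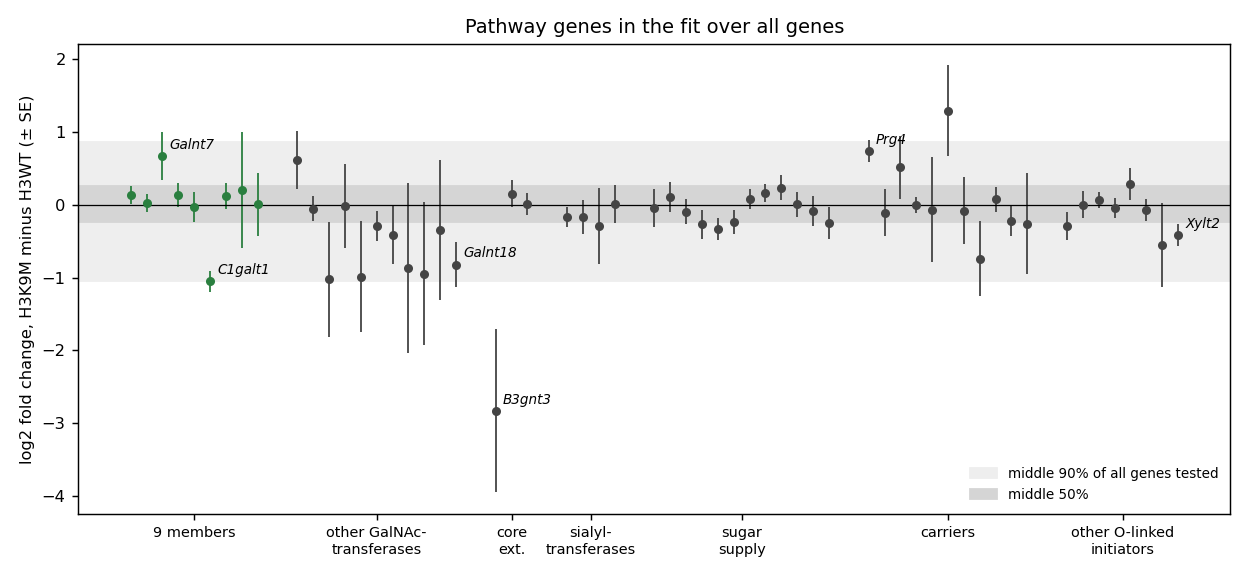
Log2 fold change of H3K9M over H3WT with its SE (edgeR, 6 libraries) for the 9 members in green and the tested genes of the 6 lists in grey, with the middle 50% and 90% of all 13761 genes shaded. C1galt1 (-1.05) lies just outside the lower edge of the middle 90% (-1.04), and the other 8 members lie between -0.03 and 0.67.

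Of the protein-coding genes within 1000 kb of the start of C1galt1, 10 others were tested and Tac1 had 0 counts. The smallest adjusted p among the 10 was 0.28 (Ica1, edgeR). The nearest gene before C1galt1 is Asns, for asparagine synthetase, which starts at -151.6 kb and had 330.4, 146.2 and 297.2 CPM in H3K9M against 280.6, 104.4 and 240.7 CPM in H3WT (edgeR log2 fold change 0.31 ± 0.44 SE, adjusted p 0.834). On the other side Col28a1, a collagen gene 347.8 kb away, had 16.7 ± 9.10 CPM in H3K9M against 20.1 ± 2.63 CPM in H3WT, and Mios, 364.4 kb away, had 27.7 ± 2.25 and 25.7 ± 2.31 CPM (SD, n = 3 each). Their log2 fold changes were -0.27 and 0.11 (SE 0.36 and 0.16, adjusted p 0.822 and 0.84, edgeR). Farther away, 3 genes had groups that did not overlap: Glcci1 was lower in H3K9M (-0.62, SE 0.25) and Ica1 and Sdhaf3 were higher (1.20 and 0.67, SE 0.38 and 0.57), with edgeR adjusted p-values of 0.385, 0.28 and 0.673. Over all genes tested, 19.4% had groups that did not overlap, so 3 of 10 is near the background. These 3 are named because of their values. Gm43961 and Gm43962 lie within the introns of C1galt1 and share none of its exon bases.

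**Figure D5:**
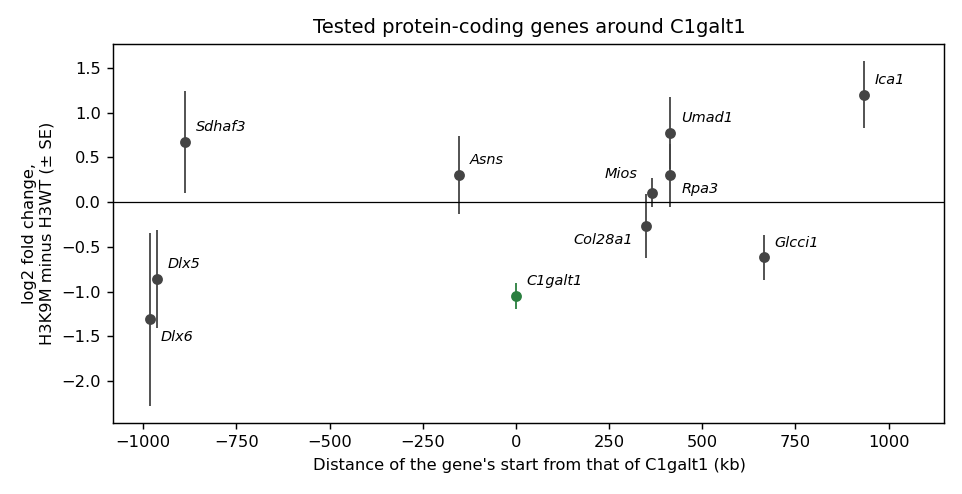
Log2 fold change of H3K9M over H3WT with its SE (edgeR) for C1galt1 (green) and the 10 other tested protein-coding genes within 1000 kb (grey), against the distance of their starts in kb. C1galt1 is at -1.05, while the nearest tested genes on either side, Asns and Col28a1, are at 0.31 and -0.27 with SEs of 0.44 and 0.36.

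Likeness to C1galt1 was measured over the 6 libraries as the root mean square difference between log2 CPM profiles, each centred on its mean. C1galt1 was chosen for its difference between the groups, so genes picked for a like profile split the groups as well. Nothing is read from that split, nor from the smallest of many differences. The gene most like C1galt1 was Snai1, a transcription factor of mesenchymal cells, at a difference of 0.108 against a median of 0.606 over all genes. Snai1 had 103.2, 96.6 and 117.8 CPM in H3K9M against 198.5, 182.6 and 188.3 CPM in H3WT. The next were Rgs9bp, Zfp689, Zfp873 and Nrip1. Nrip1, a nuclear receptor corepressor gene, had 20.9, 19.3 and 21.3 CPM in H3K9M against 50.2, 35.2 and 45.1 CPM in H3WT. The other 3 were below 8 CPM in every library. Rgs9bp rested on 4 to 22 reads per library, with an edgeR log2 fold change of -1.73 (SE 0.86). The 0.5 added to CPM shrinks differences at such levels, so its likeness depends on that setting. None of the other 8 members was near the head of this order: the closest, Galnt2, ranked 4634 and Gcnt1 ranked 13371.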

How the data were processed

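Polyadenylated RNA of 3 H3K9M and 3 H3WT samples was made into libraries with a Tecan kit, per the labels' protocols. The table deposited by the authors holds raw read counts per gene symbol. The submitters' processing notes name HISAT2, featureCounts, DESeq2 and mm10. Versions, annotation and strand setting are not given in the sources used here.

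Counts were fitted in R 4.3.3 with edgeR 4.0.16 (filterByExpr, TMM, robust glmQLFit, glmQLFTest) over the 6 libraries with group as the only term, and p-values were adjusted by Benjamini-Hochberg over 13761 genes (threshold 0.05). The standard error is the size of the log2 fold change divided by the square root of F. Profiles are log2 of CPM plus 0.5, and the principal components used a prior count of 2. Lengths, positions and overlaps came from GENCODE M21, promoters from RefSeq (GRCm38.p6) and similar transcripts from blastn 2.17.0. Replicate pairs differed by at least 26.5 times their sampling variance, so none was counted as a repeated library.

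Alternatives were DESeq2 1.42.0, limma-voom (limma 3.58.1), 2 scalings, 2 filters and leaving out each library. A correction for GC content and transcript length (loess span 0.5), leaving out H3K9M replicate 3 with H3WT replicate 2, and the longest transcript as gene length were added after seeing the data. Members and lists were chosen with earlier results of these data known. Named are all 9 members, the 3 tested genes of each other list with the highest mean CPM and any gene called, the 5 genes most like C1galt1, and its neighbours. Galnt18, Xylt2, Xylt1, Prg4 and Pdpn were named after their values were seen. The fitting was tested on simulated data.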

Additional observations from a re-analysis of the deposited data

How the results depend on the processing

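The log2 fold change of C1galt1 stayed between -1.10 and -0.99 in all 14 alternatives. Its log2 ratio to C1galt1c1 (H3K9M minus H3WT) lay between -1.19 and -1.14 when libraries were left out. The ratio was not computed with the correction for GC content and transcript length. With that correction the log2 fold changes were -1.08 for C1galt1 and -0.32 for C1galt1c1, so the ratio is smaller there. Of all genes tested, 0 of 13761 were called in the reported fit and 390 of 13752 with DESeq2. There were 36 of 19994 when every gene with at least 1 count was tested. With H3K9M replicate 3 and H3WT replicate 2 both left out, there were 302 of 13821. Leaving out 1 library at a time gave 0 to 91, the 91 (of 14246) without H3WT replicate 2 and 2 (of 14169) without H3K9M replicate 3. Of the members, 1 (C1galt1) was called with DESeq2, 1 with every gene that had a count, 1 with those 2 libraries both left out, and 0 to 1 when 1 library was left out. Of the other listed genes 1, Prg4, was called with DESeq2. The cause of these moves was not tested. The log2 fold changes of C1galt1c1, Galnt2, Galnt11, Gcnt1 and St3gal1 did not keep their sign over the alternatives, while those of Galnt1, Galnt7 and Galnt10 did. No paired analysis was possible because the titles of the 2 groups share 1 replicate number. Every member had at least 175 counts in every library.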

Other observations

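Enzymes that start other kinds of protein O-glycosylation were measured as well. All 8 were tested, with a median log2 fold change of -0.06 and 0 called over all genes with edgeR, limma-voom or DESeq2. Of all genes, edgeR and limma-voom called 0% and DESeq2 called 2.84%. Pofut2, which adds O-fucose, had 164.3 ± 7.68 CPM in H3K9M against 169.7 ± 26.0 CPM in H3WT (SD, n = 3 each). Ogt, the enzyme of intracellular O-GlcNAc, had 107.8 ± 19.1 and 113.7 ± 9.44 CPM, and Pofut1, which modifies Notch receptors, had 86.7 ± 2.98 and 82.9 ± 6.08 CPM. Their log2 fold changes were -0.05, -0.08 and 0.06 (SE 0.14, 0.15 and 0.11, adjusted p 0.93, 0.885 and 0.872, edgeR).

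Both xylosyltransferases that start glycosaminoglycan chains were measured. Xylt2 had 48.1, 46.0 and 36.8 CPM in H3K9M against 58.6, 62.6 and 53.1 CPM in H3WT, without overlap (edgeR log2 fold change -0.41 ± 0.15 SE, adjusted p 0.341). Both are named because of the values of Xylt2. Xylt1 had 11.3, 27.5 and 27.2 CPM in H3K9M against 14.5, 59.2 and 23.1 CPM in H3WT, with its highest value in H3WT replicate 2 (edgeR log2 fold change -0.55 ± 0.58 SE, adjusted p 0.756).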
